A study of Mus musculus with 6 samples.

Results

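Ependymal cells form the ciliated epithelium of the ventricle walls, and each mature cell carries a tuft of motile cilia whose beating moves cerebrospinal fluid (CSF) over the surface of the brain. Dynein arms on the microtubules of the ciliary core, the axoneme, power the beat, while radial spokes, the central pair and the nexin-dynein regulatory complex shape it. The transcription factor FOXJ1 and factors of the RFX family switch these genes on, and loss of many of them gives hydrocephalus in mice. Mature multiciliated ependymal nuclei were therefore examined in single-nucleus RNA-sequencing (snRNA-seq) libraries of neonatal mouse brains after injection of lysophosphatidic acid (LPA), a lipid that signals through G-protein coupled receptors and is used to model post-hemorrhagic hydrocephalus.

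The nuclei were chosen by the unique molecular identifiers (UMIs) of 12 genes. A nucleus with at least 300 genes and at most 1% mitochondrial UMIs was taken if the axonemal genes Dnah12, Cfap299, Spag17 and Hydin together had at least 8 UMIs. It could have no more than 1 UMI of Mcidas, Deup1 and Cdc20b, which mark cells still forming cilia, no more than 2 of Slc4a5, Kl and Clic6, which mark choroid plexus, and no more than 2 of the myelin genes Mog and Mag. Of the 60724 nuclei kept from 63383 barcodes, 1029 met this rule. C57BL/6 S-56 neonates had received 5 µl of oleoyl LPA or of vehicle (0.01% BSA) into the right lateral ventricle at P7, and brains without olfactory bulbs and cerebellum were collected at P15. All 6 mice had thus undergone anesthesia, surgery and intraventricular injection, and the LPA concentration used for these libraries was not given in the sources used here. NeuN-negative nuclei were sorted, so that neurons were depleted, and 1 library was made from each of 3 LPA-injected and 3 vehicle-injected brains. The labels do not give the sex of the mice. Xist, expressed from the inactive X chromosome, had 2, 1127 and 1361 UMIs in the chosen nuclei of the LPA libraries and 0, 615 and 1 in those of the vehicle libraries. Both groups thus held libraries with and without it, but in unequal number.

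Genes of multiciliated cells that the rule did not use were detected in more of the chosen nuclei than of the others, some in nearly all and some in a minority. Tmem212, which encodes a transmembrane protein of multiciliated cells, had a UMI in 90.5% of chosen nuclei and in 1.38% of all other nuclei, and Ak7, an adenylate kinase of motile cilia, in 95.6% and 3.34%. Levels are given as CPM, the UMIs of a gene scaled to a total of 1000000. Foxj1 had a UMI in 34.6% of chosen nuclei and 1.41% of the others and reached 102 and 3.00 CPM, and the radial spoke gene Rsph1 and Rarres2 had one in 35.6% and 32.2% of chosen nuclei. Median depth was 3383 UMIs in the chosen nuclei and 4358 in the others, so that depth did not favor detection in the former. Astrocytes, which should lack these genes, had a Tmem212 UMI in 1.00% of nuclei at a median of 3521 UMIs. Ttr, the main transcript of choroid plexus, was found at a like share in nuclei that should lack it, since it had a UMI in 10.7% of chosen nuclei, 10.2% of astrocytes and 100% of choroid plexus nuclei. Of 12 tanycyte genes, Rax and Gpr50 each had a UMI in 0.0972% of chosen nuclei and Col23a1 and Col25a1 in 15.4% and 11.6%, and the list summed to 213 to 381 CPM over the 6 libraries against 427 CPM in all other nuclei. The marker threshold cut through few nuclei: 25 and 26 nuclei had 6 and 7 marker UMIs and were left out, while 24 and 20 nuclei had 8 and 9 and were kept. A set of 6 other ciliary genes together averaged 9.88 UMIs per nucleus at 7 marker UMIs and 11.2 at 8.

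The libraries were not equal in the nuclei they gave. The 3 LPA libraries held 198, 186 and 200 chosen nuclei, and the 3 vehicle libraries 204, 97 and 144. Their median depth was 4242.5, 3497 and 3430.5 UMIs in LPA libraries and 3169.5, 3258 and 2561 UMIs in vehicle libraries, and these groups did not overlap. The median mitochondrial share of the chosen nuclei did not overlap either, at 0.0381%, 0.0406% and 0.0428% after LPA against 0.232%, 0.302% and 0.170% after vehicle. Over all nuclei kept it was 0.0102%, 0.0154% and 0.0263% against 0.0631%, 0.0506% and 0.0628%. Scrublet, which flags barcodes that look like mixtures of 2 nuclei, called 22.2%, 20.4% and 18.5% of the chosen nuclei after LPA and 18.6%, 25.8% and 22.9% after vehicle. The part of depth and of mitochondrial share in the differences below was not tested. Among the chosen nuclei, LPA 3 and vehicle 3 shared 2 barcodes and no other pair of libraries shared any.

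The share of nuclei that met the rule showed no clear difference between the groups. It was 2.32%, 1.81% and 2.20% of nuclei kept in the LPA libraries and 2.52%, 0.782% and 1.17% in the vehicle libraries. Vehicle 1 gave the highest share of all 6 libraries and vehicle 2 the lowest, so that the groups overlapped. The means were 2.11% ± 0.266 (SD, n = 3) and 1.49% ± 0.911 (n = 3), with p = 0.4 in a two-sided exact permutation test over 20 assignments, in which 3 against 3 libraries cannot go below 0.1. Without the limit on mitochondrial UMIs the means were 2.23% and 2.21% (p = 1, exact permutation test), with 201, 201 and 240 nuclei in the LPA libraries and 298, 164 and 245 in the vehicle libraries. The difference of 0.621 percentage points became 1.14 without vehicle 1, 0.267 without vehicle 2 and 0.461 without vehicle 3. Of the nuclei that met the marker threshold, 156 exceeded the limit on genes of forming cilia and are therefore not among the 1029. Those counted per library, which do not make up all of the 156, numbered 36, 35 and 55 in the LPA libraries and 7, 1 and 5 in the vehicle libraries.

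**Figure D1:**
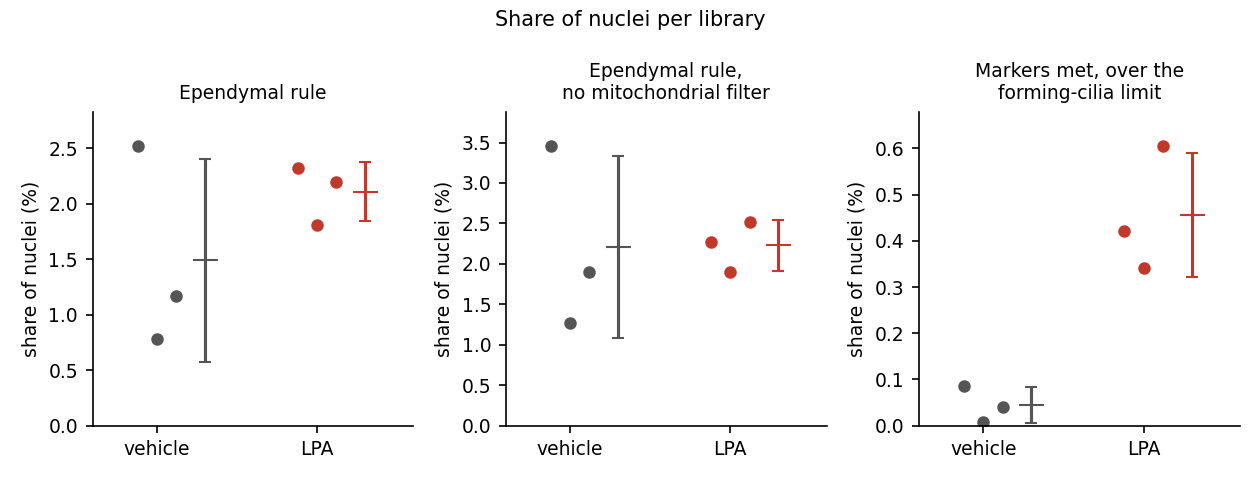
Share of nuclei (%) per library that met the ependymal rule (left) and that met it without the mitochondrial limit (middle). The right panel shows the part counted per library of nuclei that met the marker threshold but had too many UMIs of genes of forming cilia. Points are libraries and bars are the mean ± SD of 3. The groups overlap in the left and middle panels, while all 3 LPA libraries lie above the vehicle libraries on the right (0.341% to 0.604% against 0.00806% to 0.0864%).

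Gene expression within the chosen nuclei was compared between LPA and vehicle on UMIs summed per library. Of 10637 genes tested with edgeR, 70 rose and 38 fell after LPA, called where the adjusted p was below 0.05 and the log2 fold-change 0.25 or more in size, which is 1.02% of genes tested (0.658% higher and 0.357% lower). In 107 of these 108 genes the 3 LPA libraries did not overlap the 3 vehicle libraries, as was the case in 16.7% of all genes tested (8.8% higher and 7.93% lower). The genes were called on these same libraries, so the lack of overlap adds no support to the calls. Calls numbered 46 without vehicle 2, 53 without vehicle 1, 65 without LPA 1, 70 without vehicle 3 and 59 with DESeq2. With the same number of nuclei drawn from each library they numbered 13, and Gfap, C4b, Cd109, Nwd1, Rassf9, Ccdc39 and Dnah10, described below, were among those no longer called. By p, Mir670hg, Gfap, Nwd1, Plb1 and Tnfrsf19 led the increases, and by fold Gm29296, Myo1f, Plb1, Fcrls and Siglech did. Mitochondrial transcripts, whose share the rule limits, made up 9 of the 38 lower calls counted here, and no test is read from those 9.

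**Figure D2:**
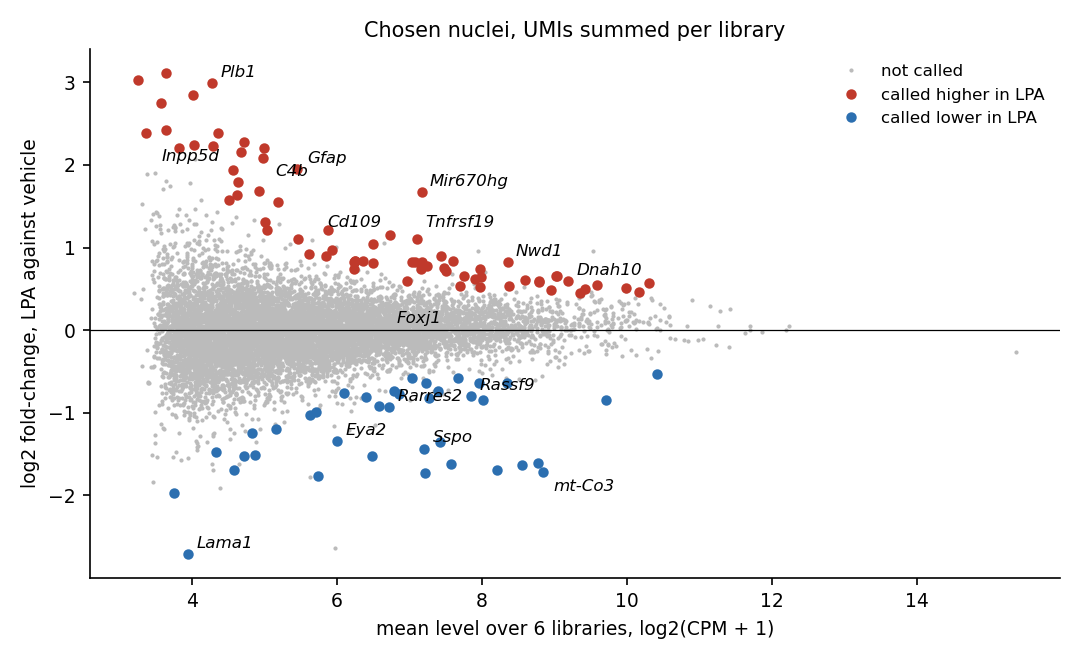
Log2 fold-change (LPA against vehicle) of 10629 genes, those of the rule left out, against their mean level, log2(CPM + 1). Called genes are red where higher and blue where lower after LPA. Gfap, C4b and Mir670hg stand well above 0 and the mitochondrial gene mt-Co3 well below, while Foxj1 lies at 0.01.

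The reactive glial genes Gfap, C4b and Cd109 rose in the ependymal nuclei, and 10 others tested were not called. Gfap (chr11:102887336-102900912, GRCm38), the intermediate filament of reactive astrocytes that ependymal cells can also carry, was at 63.1, 62.1 and 76.3 CPM after LPA and at 15.9, 20.4 and 17.0 CPM after vehicle. The log2 fold-change was 1.95 ± 0.25 (SE, n = 3 per group) with an adjusted p of 0.000292. C4b (chr17:34728380-34743882), a complement component, was at 41.1, 60.9 and 42.4 CPM against 5.67, 20.4 and 12.8 CPM, a log2 fold-change of 2.09 ± 0.36 (adjusted p = 0.0075). Every LPA library was above every vehicle library for these genes. Cd109 (chr9:78615546-78716253), a membrane protein that binds TGF-β, was at 185, 135 and 121 CPM against 79.4, 45.9 and 63.8 CPM (log2 fold-change 1.15 ± 0.20, adjusted p = 0.0078). Of the 30 genes on the reactive glia list, 13 could be tested, of which these 3 rose, none fell and 12 had a log2 fold-change above 0, with a median of 0.54. Over all genes tested, 0.658% rose, 49.1% were above 0 and the median was -0.01. Vim, which ependymal cells express constitutively, was not called (log2 fold-change 0.25 ± 0.20, adjusted p = 0.70), and the water channel Aqp4, which lies in their basolateral membrane, had a log2 fold-change of -0.01 ± 0.15. Astrocytes of the same libraries, where 7.09% of genes tested were called, gave 1.44 for Gfap, 1.90 for C4b and 0.65 for Cd109 in a fit of their own. The summed list of 10 astrocyte markers, led by Slc1a2, was at 2371, 3114 and 3455 CPM in the chosen nuclei after LPA and 2871, 2144 and 2151 CPM after vehicle, with no gene at 0, and the groups overlapped. Of this list 9 genes were tested, 7 had a log2 fold-change above 0 with a median of 0.32, and Slc1a3 alone was called, higher. The part of astrocyte transcripts in the rise of these genes was not tested. In the largest ependymal sub-group described below, of which Scrublet called 1.64%, Gfap, C4b and Cd109 were still called, at 1.79, 3.19 and 1.11. C4b lost its call without vehicle 1, and all 3 genes lost theirs with the same number of nuclei per library.

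Several genes outside the lists rose too. Mir670hg (chr2:94160636-94264918), a long non-coding RNA that hosts a microRNA, was at 259, 201 and 194 CPM after LPA and at 77.1, 68.9 and 55.3 CPM after vehicle (log2 fold-change 1.67 ± 0.17, adjusted p = 1.36e-05). Nwd1 (chr8:72646711-72717876), a protein with NACHT and WD repeat domains, was at 421, 421 and 408 CPM against 248, 217 and 238 CPM, with a log2 fold-change of 0.82 ± 0.11. Tnfrsf19 (chr14:60963875-61046490), a TNF receptor family member also known as Troy, was at 161, 205 and 198 CPM against 104, 66.3 and 80.9 CPM (1.10 ± 0.16, adjusted p = 0.0021). None of these ranges overlapped between the groups, and Mir670hg and Tnfrsf19 stayed called in all 18 alternatives tried. Rgs20, a regulator of G-protein signaling, rose by 0.74 ± 0.12 on the log2 scale, the adaptor Shc3 by 1.04 ± 0.17 (not called without vehicle 1) and the membrane-curving protein Fnbp1 by 0.66 ± 0.11. Plb1, a phospholipase that acts on lysophospholipids among other lipids, was at 40.1, 29.8 and 28.6 CPM against 4.53, 5.10 and 2.13 CPM, and gave a log2 fold-change of 2.99 ± 0.42 (adjusted p = 0.001). Plb1 was also a leading gene of sub-group 3 described below, which held more nuclei after LPA, and without that sub-group it fell under the filter on low counts. The lincRNA Gm29296 rose by 3.11 ± 0.55 from a level of at most 4.26 CPM after vehicle, and the antisense transcript Gm40578 by 0.82 ± 0.14. Both calls were lost without vehicle 1, and that of Gm40578 also when Scrublet calls were left out or the same number of nuclei was taken per library. DESeq2 gave Gm29296 no adjusted p. Gm29296 was likewise a leading gene of sub-group 3 and was not tested without it, and Gm40578 was at 0.47 (adjusted p = 0.42) in sub-group 0 alone. The matricellular gene Ccn1, a target of Yap signaling, was at 41.1, 24.8 and 84.8 CPM against 9.07, 7.65 and 17.0 CPM (2.20 ± 0.46, adjusted p = 0.023), and was the only call among 22 genes tested of the BMP, Wnt, Hedgehog and Yap list. Its call was lost without LPA 3, vehicle 1 or vehicle 2. Of the Notch, Id and progenitor genes, Ptprz1 (0.50 ± 0.11) and the glutamate transporter Slc1a3 (0.49 ± 0.11) rose, and 18 of 20 were not called (0.658% of all genes tested rose). Slc1a3 is also on the astrocyte list, of which it was the only call. Both were close to the threshold (adjusted p = 0.029 and 0.049) and were called in 9 and 5 of 18 alternatives.

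**Figure D3:**
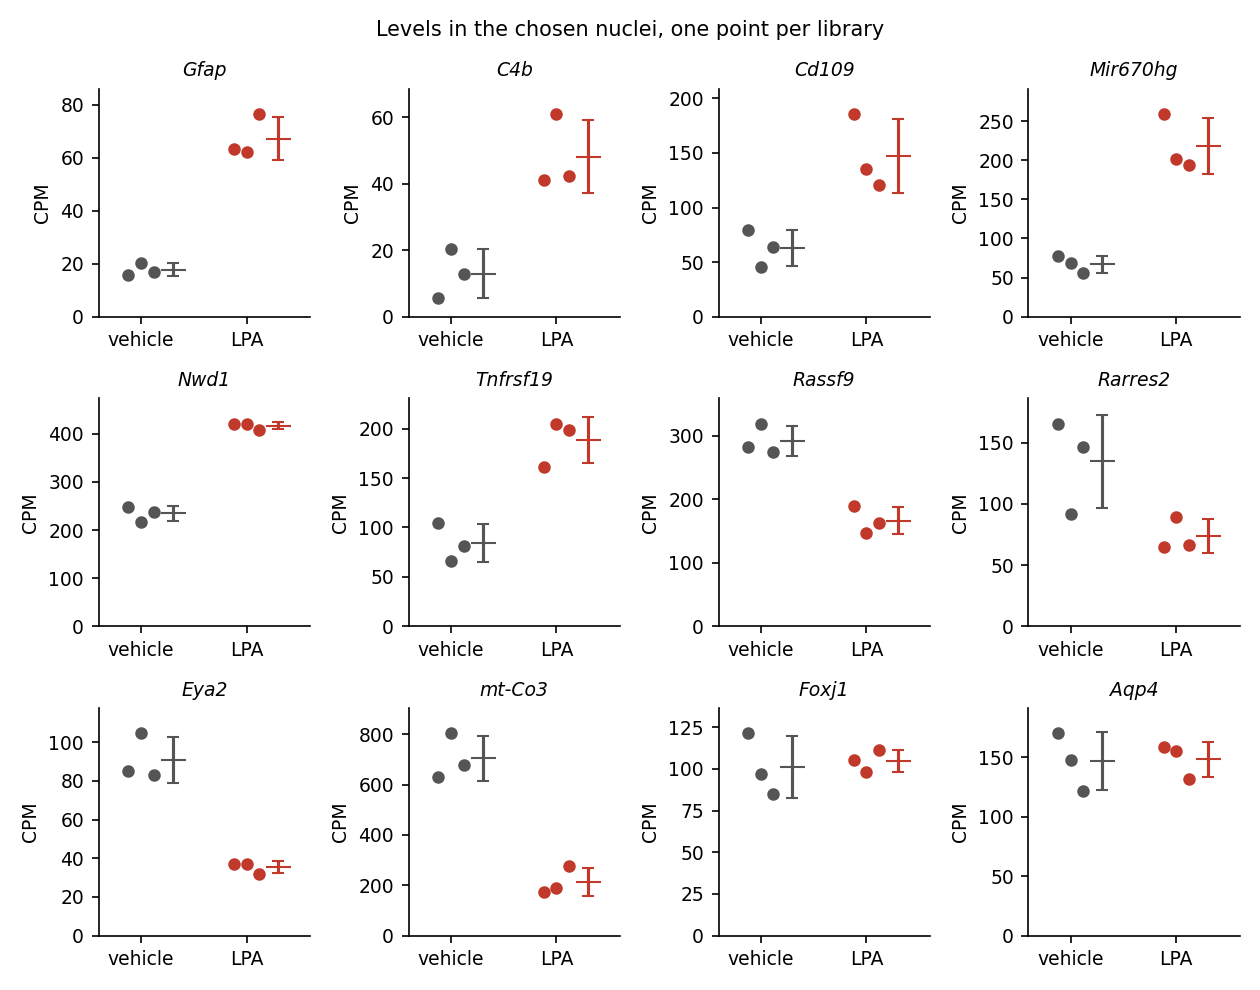
CPM in the chosen nuclei for 12 genes, with 1 point per library and the mean ± SD of 3 as bars. Gfap, C4b, Cd109, Mir670hg, Nwd1 and Tnfrsf19 are higher in every LPA library than in any vehicle library, Rassf9, Rarres2, Eya2 and mt-Co3 are lower, and Foxj1 and Aqp4 overlap.

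Among the decreases, Rassf9 (chr10:102512222-102549736), a RAS association domain protein, was much higher in the chosen nuclei than in the rest of the brain and fell after LPA. It was at 189, 147 and 163 CPM after LPA and at 282, 319 and 275 CPM after vehicle, with 12.7 CPM in all other nuclei but 77.2 CPM in choroid plexus. Its log2 fold-change was -0.80 ± 0.13 (adjusted p = 0.0041). In sub-group 0 alone it was -0.52 and not called (adjusted p = 0.30). Rarres2, the chemerin gene and an ependymal marker, was at 65.2, 89.4 and 66.8 CPM against 166, 91.8 and 147 CPM (-0.93 ± 0.19, adjusted p = 0.022), and its call was lost without LPA 1, LPA 3, vehicle 1 or vehicle 3. It was the only call among 18 tested genes of ependymal identity, of which 9 had a log2 fold-change above 0, beside 1.02% called and 49.1% above 0 over all genes tested. Eya2, a transcriptional co-activator and phosphatase, was at 37.1, 37.3 and 31.8 CPM against 85.0, 105 and 83.0 CPM, but its log2 fold-change of -1.34 ± 0.19 became -0.39 (adjusted p = 0.78) without the 2 sub-groups of mixed nuclei described below. Lama1, a laminin chain of basement membranes, fell by 2.71 ± 0.48 on the log2 scale from a low level of 20.4 to 31.9 CPM, and the lincRNA Gm40761 by 1.97 ± 0.46 from 15.3 to 22.7 CPM. The iron storage gene Fth1 fell by 0.73 ± 0.17, the myelin gene Mobp by 0.82 ± 0.15 and Slc6a13, a GABA and taurine transporter of meningeal cells, by 1.51 ± 0.36. Leaving out any library but LPA 3 ended the call of Fth1, any but vehicle 3 that of Slc6a13, any but LPA 3 that of Gm40761, and LPA 1, vehicle 2 or vehicle 3 that of Mobp, while that of Lama1 was lost without vehicle 1 or vehicle 3. The summed vascular and meningeal list, led by Bnc2, was at 274, 332 and 287 CPM against 441, 605 and 338 CPM, the summed oligodendrocyte list, led by Mbp, was at 735, 1100 and 803 CPM against 1101, 1252 and 1287 CPM, neither had a gene at 0, and their part in these decreases was not tested. Sspo, which encodes the SCO-spondin of Reissner's fiber, was at 75.2, 79.5 and 72.1 CPM after LPA and at 120, 319 and 211 CPM after vehicle (-1.43 ± 0.25, adjusted p = 0.0075), and is named here after its values were seen. It was carried mostly by the 23 nuclei of sub-group 5 described below, 7 after LPA and 16 after vehicle, with a UMI in 4.67% of the other chosen nuclei.

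Mitochondrially encoded transcripts were lower in all 3 LPA libraries. The rule limits their share of a nucleus, so their values are a description and no test is read from them. Of 13 such genes 11 passed the filter on low counts, and their median log2 fold-change was -1.63. Subunit 3 of cytochrome c oxidase, mt-Co3 (chrM:8607-9390), was at 172, 188 and 278 CPM against 628, 803 and 679 CPM, a log2 fold-change of -1.72. Cytochrome b (mt-Cytb) gave -1.73 and subunit 4 of complex I (mt-Nd4) -1.62, and in astrocytes of the same libraries these 3 were at -1.33, -1.39 and -1.37. Subunits mt-Co1 and mt-Co2 of the oxidase gave -1.60 and -1.69, mt-Atp6 of the ATP synthase -1.63, and mt-Nd1 and mt-Nd2 of complex I -1.76 and -1.53. Nuclei should hold no mitochondria, and the 13 genes together made up 803, 874 and 1271 CPM of the chosen nuclei after LPA, 2881, 3470 and 3024 CPM after vehicle and 646 CPM in all other nuclei. The limit of 1% mitochondrial UMIs was part of the rule and removed 94, 67 and 101 nuclei of the vehicle libraries but 3, 15 and 40 of the LPA libraries that otherwise met it. The part of RNA from outside the nuclei in this difference was not tested.

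Few genes of the axoneme passed the test, and most of the others lay slightly above 0. The 4 genes of the rule, given without a test, were at 2094 to 2622 CPM for Dnah12, 1712 to 2217 CPM for Cfap299, 782 to 985 CPM for Spag17 and 1002 to 1184 CPM for Hydin over the 6 libraries. Of 93 genes on 7 lists of axonemal parts and their assembly factors, 88 were tested apart from the rule, 2 rose and none fell, beside 1.02% of all genes. Ccdc39 (chr3:33812362-33844310), the molecular ruler that sets the spacing of inner arms and whose loss causes hydrocephalus, was at 696, 590 and 602 CPM after LPA and at 371, 416 and 421 CPM after vehicle (log2 fold-change 0.65 ± 0.11, adjusted p = 0.0078). Dnah10 (chr5:124725085-124834308), an inner arm heavy chain, was at 686, 662 and 754 CPM against 509, 441 and 434 CPM (0.59 ± 0.11, adjusted p = 0.011). The call of Ccdc39 was lost without vehicle 1, and that of Dnah10 without LPA 3, vehicle 2 or vehicle 3. Over all members, 74 of 88 had a log2 fold-change above 0 (49.1% of all genes tested did), with a median of 0.15, and in 32 the LPA libraries lay above the vehicle libraries without overlap (8.8% of all genes tested). The central pair genes were all above 0 (13 of 13, median 0.21), as were the inner arm genes (9 of 9, median 0.14), and the outer arm genes mostly were (10 of 11, median 0.12). Of the 2 members with the most UMIs on each list, Spag16 (central pair, 0.37 ± 0.11), Dnah9 (outer arm, 0.12 ± 0.10) and Cfap61 (radial spoke, 0.09 ± 0.10), were not called. These lists hold genes related to the 4 that chose the nuclei, and the counts cannot be taken as independent of the rule.

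The shift of the axonemal genes depended on which nuclei were summed. With the mitochondrial limit lifted, 55 of 89 members were above 0 with a median of 0.04. Without the sub-group of nuclei led by Ccna1 described below, 48 of 87 members were above 0 with a median of 0.01, and neither Ccdc39 (0.43, adjusted p = 0.15) nor Dnah10 (0.22, adjusted p = 0.61) was called. Within the largest sub-group alone, 43 of 84 were above 0, the median was 0.00, and Ccdc39 and Dnah10 were at 0.50 and 0.11.

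RFX factors bind the X-box, and GTTGCC is an arm of that element. Of the axonemal genes on the 7 lists, 75 had a RefSeq promoter on GRCm38.p6, and in 26 (34.7%) the 250 bases before the start held GTTGCC on either strand, as did 13.5% of the promoters of genes tested and 11.8% of all promoters. A match is a description of the letters and not a shown binding site. The promoter of Hydin, a central pair gene of the rule, and those of Dnah10, which rose, and Spag16, a central pair gene with many UMIs, show where it lies, with the match in capitals (GGCAAC is GTTGCC read on the other strand).
Hydin, chr8:110266947-110266976, plus strand: cactctgcggttgctgtGGCAACagatggt
Dnah10, chr5:124725053-124725082, plus strand: cgcgctggcgccGTTGCCcaggtccccgtt
Spag16, chr1:69826855-69826884, plus strand: actaggcaacgcGTTGCCgtagtaactgcg
The match began 13 bases before the start in Hydin, 20 in Dnah10 and 103 in Spag16, whose promoter held 2 matches, of which that on the printed strand is in capitals. Of the 7 promoters looked at singly, those of Ccdc39, which also rose, of Spag17 and Dnah12 of the rule, and of Dnah9 held none. Of the RFX genes themselves, Rfx4 was at 444, 419 and 372 CPM against 323, 304 and 266 CPM (log2 fold-change 0.46 ± 0.12, adjusted p = 0.082), and Rfx3 at 839, 707 and 727 CPM against 782, 865 and 906 CPM (-0.16 ± 0.11), so that neither was called. Foxj1 was at 105, 98.1 and 111 CPM against 121, 96.9 and 85.1 CPM, with a log2 fold-change of 0.01 ± 0.16.

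Lists of other parts of the ciliary apparatus and of the epithelium gave no calls, a share near the 1.02% called over all genes. None of the 33 genes of intraflagellar transport and the BBSome, 16 of centrioles and basal bodies, 11 multiciliation regulators, 17 of planar polarity or 25 of junctions and apical polarity was called among those tested. Their median log2 fold-changes were 0.13, 0.16, 0.17, -0.06 and 0.02. The motor Dync2h1, which carries cargo back from the ciliary tip, was at 0.12 ± 0.11, and the polarity gene Prickle2 at -0.02 ± 0.11. None of 19 genes of water and ion transport was called, with a median of -0.14. Of 28 genes whose loss gives hydrocephalus in mice, Ccdc39 alone was called, and 20 were above 0 with a median of 0.11, beside 49.1% above 0 over all genes tested. Ccdc39 is also on an axonemal list, so these counts are not separate from those of the axoneme. Only 2 of 21 cell division genes passed the filter on low counts and neither was called.

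**Figure D4:**
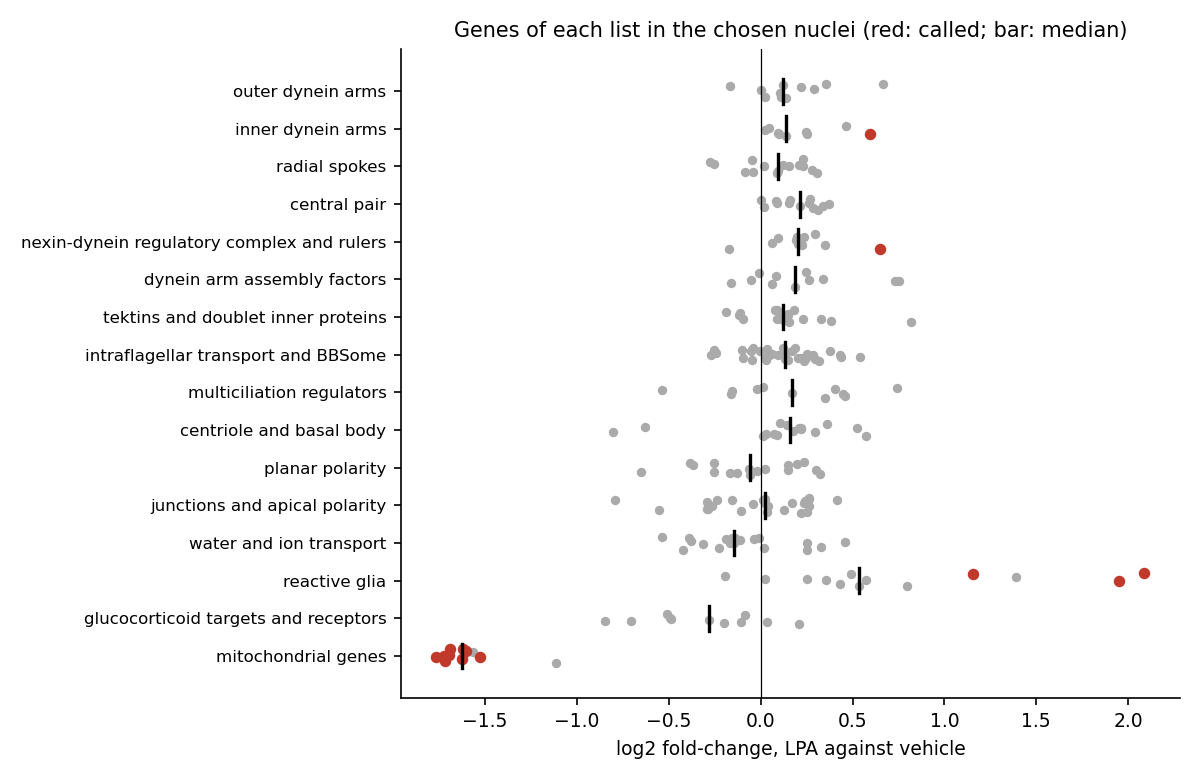
Log2 fold-change (LPA against vehicle) of each tested gene on 16 lists, with called genes in red and the median of a list as a bar. The axonemal lists lie slightly to the right of 0 with 2 called genes, reactive glial genes lie further right, and mitochondrial genes lie between -1.76 and -1.11.

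The lists of LPA signaling and of stress and immune responses held 5 to 11 tested genes each and gave no calls, which is near the 1.02% called over all genes. Lpar1, an LPA receptor gene, was at 150, 154 and 101 CPM after LPA and at 133, 112 and 130 CPM after vehicle (log2 fold-change 0.09 ± 0.17, adjusted p = 0.90). Enpp2, which encodes autotaxin, the enzyme that makes LPA, was at 105, 98.1 and 117 CPM against 129, 138 and 128 CPM, with a log2 fold-change of -0.29 ± 0.14 that was not called, and its level in choroid plexus was 6129 CPM. Of 8 tested genes on this list none was called. Among 11 tested glucocorticoid targets and receptors none was called and 2 were above 0 (median -0.28), beside 49.1% above 0 over all genes tested. Fkbp5, a classical target, was at 31.1, 39.7 and 55.1 CPM against 53.3, 74.0 and 57.5 CPM (-0.51 ± 0.24, adjusted p = 0.42), and Tsc22d3 gave -0.85 ± 0.37. None of the tested genes of tanycytes (5), telencephalic position (2), choroid plexus (5), cells forming cilia (2), neuroblasts (3) or oligodendrocyte precursors (6) was called. The 2 genes of cells forming cilia were above 0, with a median of 0.46, beside 49.1% above 0 over all genes tested. Hypoxia genes (9 tested), immediate early and stress genes (6), interferon response and antigen presentation genes (5) and chemokines, cytokines and NF-κB genes (10) gave no call. The phosphatase gene Dusp1, which is on none of these lists, rose and is given under the other observations. None of the 6 sex-linked genes was called.

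Microglial transcripts were also higher in the summed UMIs of the LPA libraries. Inpp5d, a phosphatase of blood and immune cells, was at 50.1, 37.3 and 29.7 CPM against 5.67, 17.9 and 6.38 CPM (log2 fold-change 2.15 ± 0.39, adjusted p = 0.009), and the microglial lectin Siglech rose by 2.75 ± 0.62. The microglial receptor Fcrls was at 29.1, 19.9 and 28.6 CPM against 0, 5.10 and 8.51 CPM (2.85 ± 0.56), and the leukocyte myosin Myo1f rose by 3.03 ± 0.59. Of 11 genes on the list of microglia and macrophages 8 were tested and 3 rose, among them Inpp5d and Siglech, beside 0.658% of all genes tested. The call of Inpp5d was lost without vehicle 1, and that of Siglech without LPA 1, LPA 2, vehicle 2 or vehicle 3. That of Fcrls was lost without LPA 1, LPA 3, vehicle 1 or vehicle 2, and that of Myo1f without any library but LPA 2. DESeq2 gave Siglech and Myo1f no adjusted p. The summed list was at 368, 324 and 276 CPM in the LPA libraries and 153, 247 and 237 CPM in the vehicle libraries, against 286 CPM in all other nuclei. The gene of the list with the most UMIs, Cx3cr1, was at 111, 102 and 96.5 CPM against 90.7, 96.9 and 97.9 CPM and was not called, and no gene of the list was at 0 over all chosen nuclei. Without the 2 sub-groups of mixed nuclei, Inpp5d, Siglech, Fcrls and Myo1f no longer passed the filter on low counts and could not be tested. Lgmn and Slc9a9, each called at 0.82 with all chosen nuclei, could be tested there and were not called. They were at 0.03 (adjusted p = 0.99) and 0.45 (adjusted p = 0.54). Oligodendrocyte, neuronal and vascular genes had median log2 fold-changes of -0.42, -0.14 and -0.58, with 1 of 6, 0 of 10 and 1 of 7 tested genes called, all lower (0.357% of all genes tested fell), whereas the astrocyte genes had a median of 0.32 with 1 of 9 called, higher.

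The chosen nuclei fell into 6 sub-groups, numbered from 0, when clustered without the rule genes and without the genes at an unadjusted p under 0.05 between LPA and vehicle. Their sizes are a description and were not tested. Sub-group 0, the largest, held 489 nuclei and made up 46.5%, 47.8% and 49.0% of the chosen nuclei of the LPA libraries and 46.6%, 46.4% and 48.6% of those of the vehicle libraries, so that the groups overlapped. Sub-group 1 (199 nuclei) was led by Rspo2, an enhancer of Wnt signaling, and Lmx1a, a transcription factor of the dorsal midline. It made up 16.2%, 14.0% and 12% after LPA and 29.4%, 24.7% and 22.9% after vehicle, with every LPA library below every vehicle library. Sub-group 3 (106 nuclei) was led by Ccna1, the cyclin best known from male meiosis, and Ccdc192, which were held out of the clustering. It made up 16.7%, 12.9% and 19.0% after LPA and 3.43%, 1.03% and 2.08% after vehicle, which is 33, 24 and 38 nuclei against 7, 1 and 3. The LPA libraries were again clear of the vehicle libraries, in the opposite direction.

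Few barcodes of sub-group 3 were called as mixtures. Its median depth was 3990 UMIs (3046 in sub-group 0), Scrublet called 1.89% of its nuclei, and it had the highest median of marker UMIs (36, against 24 in sub-group 0). Ccdc78, a component of the structures that build centrioles in multiciliated cells, was among its 15 leading genes, with a UMI in 46.2% of its nuclei and 15.9% of the other chosen nuclei. Like Ccna1 and Ccdc192, Ccdc78 was held out of the clustering because it differed between LPA and vehicle. Most nuclei of the sub-group came from LPA libraries, so the lead of Ccdc78 is not independent of that difference. Ccna1 over all chosen nuclei was at 45.1, 34.8 and 31.8 CPM after LPA and at 14.7, 7.65 and 2.13 CPM after vehicle, and was named after its values were seen. At a clustering resolution of 0.4 these nuclei merged with sub-group 0, and at 1 a cluster of 99 nuclei shared 96 with them and held 32, 22 and 35 nuclei of the LPA libraries and 7, 1 and 2 of the vehicle libraries.

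A further 2 sub-groups looked like mixtures with other cells. Sub-group 2 (130 nuclei) was led by neuronal genes such as Myt1l, had a median of 9446.5 UMIs and was called by Scrublet in 95.4% of its nuclei. Sub-group 4 (82 nuclei) was led by Fli1 and by microglial genes such as Adgre1, and Scrublet called 80.5% of it. Both made up similar shares in LPA and vehicle libraries (means of 12.5% and 12.9% for sub-group 2, and 8.26% and 8.15% for sub-group 4). Sub-group 5 (23 nuclei) was led by Sspo, with a UMI in 100% of its nuclei, was called by Scrublet in 65.2%, and made up 1.52%, 1.61% and 0.5% after LPA and 1.96%, 4.12% and 5.56% after vehicle. Leaving out sub-groups 2 and 4 gave 57 genes that rose and 37 that fell, of which 56 were also called with all chosen nuclei, and sub-group 0 alone gave 35 and 21, of which 33 were.

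**Figure D5:**
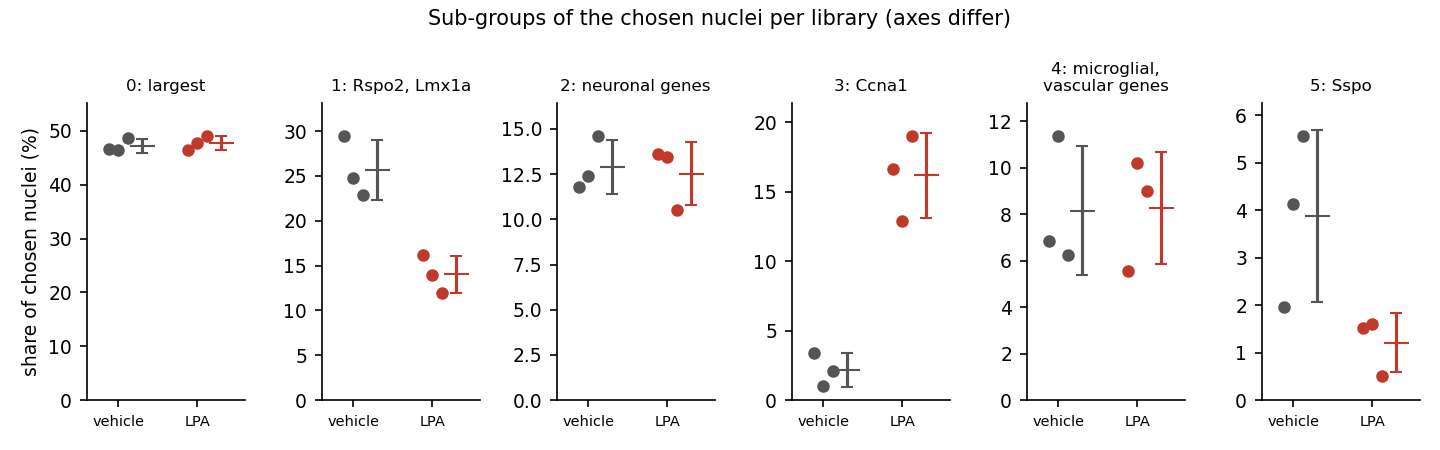
Share of the chosen nuclei (%) in each of 6 sub-groups per library, with the mean ± SD of 3 as bars and a separate axis for each panel. Sub-groups 0, 2 and 4 overlap between vehicle and LPA, sub-groups 1 and 5 are lower and sub-group 3 is higher after LPA.

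Genes of position along the brain were found in fewer nuclei after LPA for one list. After each nucleus was thinned to 2000 UMIs, which left out 24 nuclei of the LPA and 48 of the vehicle libraries, a transcript of 17 genes that mark diencephalon and midbrain was found in 17.2%, 18.3% and 14.5% of chosen nuclei after LPA and in 29.9%, 24.2% and 26.8% after vehicle. The means of 16.7% ± 1.94 and 27.0% ± 2.86 (SD, n = 3) gave p = 0.1 in an exact permutation test, the smallest value possible. Without thinning the shares were 32.8%, 28.0% and 26.5% against 42.6%, 44.3% and 38.2%, and at 4000 UMIs, where fewer nuclei remained, they overlapped. All 4 genes of this list that could be tested were below 0, among them Otx2 (-0.70 ± 0.24) and Irx5 (-0.57 ± 0.24), and none was called, beside 49.1% above 0 and 1.02% called over all genes tested. Otx2 was also a leading gene of sub-group 1, with a UMI in 32.7% of its nuclei and 8.55% of the other chosen nuclei. That sub-group made up means of 14.0% after LPA and 25.7% after vehicle, and its part in this difference was not tested. Telencephalic genes were found in 7.81%, 13.7% and 7.77% of thinned nuclei against 9.28%, 14.3% and 15.2% (p = 0.2, exact permutation test), and hindbrain genes in at most 1.14%. The telencephalic difference of -3.15 percentage points became -5.12 without LPA 2 and -4.97 without vehicle 1, where the groups no longer overlapped. Without vehicle 3 it was -2.02.

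The response to LPA was next compared with that of 2 other populations of the same libraries, with the library as a block, and only genes of lowest p are named. Against 285 nuclei of choroid plexus epithelium, the other epithelium of the ventricles, 3 of 9125 genes (0.0329%) differed in their response, and all 3 were more negative in ependymal nuclei. Gria4, an AMPA receptor subunit, had a log2 fold-change of -0.49 ± 0.17 in ependymal nuclei and 1.55 ± 0.28 in choroid plexus, a difference of -1.96 ± 0.30 (adjusted p = 0.0051). The transcription factor Dach1 and the kainate receptor subunit Grik1 differed by -2.36 ± 0.43 and -1.63 ± 0.30, but neither was called within either population. In choroid plexus Dach1 was at 174, 63.3 and 43.8 CPM after LPA and 33.2, 33.9 and 36.1 CPM after vehicle. Grik1 was there at 126, 122 and 458 CPM against 69.2, 84.8 and 79.5 CPM. For each gene 1 LPA library thus stood far above the rest. In choroid plexus alone 14 of 5962 genes (0.235%) were called. DESeq2 called no difference, edgeR none without LPA 2 or without vehicle 1 but 34 without vehicle 2, and 605 genes had an unadjusted p below 0.05. Dach1 had 4 to 50 UMIs per choroid plexus library, and its difference changed sign to 0.15 when nuclei with markers of other classes were left out. The 44 to 74 choroid plexus nuclei in the LPA libraries and 21 to 64 in the vehicle libraries limit what could be detected.

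Against 9275 astrocytes, 83 of 14886 genes (0.558%) differed in their response, of which 33 (0.222%) were more positive and 50 (0.336%) more negative in ependymal nuclei. For Nwd1 astrocytes gave 0.04 ± 0.06 where ependymal nuclei gave 0.82 ± 0.11, a difference of 0.83 ± 0.13 (adjusted p = 0.000512). Dzip1l, a protein of the ciliary base, rose in ependymal nuclei and fell in astrocytes, at 138, 149 and 148 CPM against 105, 91.4 and 90.0 CPM in the former (difference 1.12 ± 0.16). The extracellular glycoprotein Reln, the matrix protein Thsd4 and the proteolipid Nnat also had more positive responses in ependymal nuclei, by 1.63 ± 0.25, 1.19 ± 0.20 and 0.72 ± 0.13, although none was called within ependymal nuclei. The difference for Reln went to 0.21 and was no longer called when Scrublet calls were left out. The 5 of lowest p in the other direction were Cfap44, the glutamine transporter Slc38a1, the copine Cpne8, Gm17359 and Lrriq1. Cfap44, an axonemal protein, was at 1521, 1528 and 1436 CPM against 1217, 1193 and 1215 CPM in ependymal nuclei (0.32 ± 0.09, not called), but in astrocytes at 37.8, 36.9 and 33.2 CPM against 12.8, 9.19 and 14.2 CPM (1.64 ± 0.14, adjusted p = 3.36e-06). The difference in response was -1.26 ± 0.15 for Cfap44, -1.19 ± 0.18 for Lrriq1, -1.04 ± 0.14 for Slc38a1, -1.28 ± 0.18 for Cpne8 and -1.95 ± 0.29 for Gm17359. Astrocytes were chosen with at most 2 UMIs of the 4 axonemal markers, so that nuclei with few ciliary transcripts could be among them. Some other genes called in ependymal nuclei were called in the same direction in astrocytes and some were not, in a fit of their own on the same 6 libraries, controls included. Mir670hg was at 1.67 in ependymal nuclei and 0.81 ± 0.08 in astrocytes, Tnfrsf19 at 1.10 and 0.43 ± 0.06, and Ccn1 at 2.20 and 1.36 ± 0.14. Of the decreases, Eya2 was at -1.34 and -1.15 ± 0.09, and Slc6a13 at -1.51 and -1.35 ± 0.13. Rgs20 and Shc3 were called in both populations too, at 0.31 and 0.34 in astrocytes, while Fnbp1, at 0.24 there (adjusted p = 0.014), was under the fold required. Not called in astrocytes were Rarres2 (-0.21 ± 0.20), Ptprz1 (-0.02 ± 0.05), Ccdc39 (0.27 ± 0.09), Dnah10 (0.30 ± 0.24) and Rassf9 (-0.00064 ± 0.24). Dnah10, Rassf9 and Rarres2 were at 6.51, 5.66 and 6.88 CPM in astrocytes, against 593, 207 and 97.1 CPM in ependymal nuclei. Such low levels limit what could be detected there. Slc1a3, whose UMIs helped to choose the astrocytes, was at -0.01 ± 0.05 in them, and no test is read from that value. Differences numbered 31 without vehicle 1, 47 without LPA 1, 49 without vehicle 2 and 43 with DESeq2.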

How the data were processed

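The authors deposited, per the labels, filtered matrices of raw UMI counts of 32285 genes from Cell Ranger 4.0.0 on a pre-mRNA reference of mm10, with intronic reads counted. Total UMIs were 50737541 to 54715094 in LPA and 48852970 to 65688644 in vehicle libraries, and 825323 to 1048353 and 404935 to 898099 in the chosen nuclei. The members, lists and tests were chosen with earlier results of these data known. No doublets were removed in the main analysis, and Scrublet (scanpy 1.11.5, expected rate 0.08) served as an alternative. Counts were summed per library and tested with edgeR 4.0.16 (filterByExpr, TMM, quasi-likelihood test, Benjamini-Hochberg adjustment over all genes tested) in R 4.3.3. CPM values use TMM library sizes, except in comparisons with other populations and sums over lists, which use summed UMIs. The authors tested nuclei with a Wilcoxon rank sum test, which is an alternative here. Sub-groups came from leidenalg 0.10.2 on 2000 variable genes, 20 principal components and 20 neighbours at resolution 0.6. Choroid plexus nuclei had at least 8 UMIs of Slc4a5, Kl and Clic6 and at most 7 of the 4 axonemal markers, and astrocytes at least 20 of Slc1a2, Slc1a3, Aqp4 and Gja1, at most 2 of the axonemal markers and at most 5 of Snap25 and Syt1.

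Genes were named by rule: among called genes without overlap, the 10 of lowest p and the 5 of largest fold (at least 10 CPM) in each direction, up to 4 called genes of each list or its 2 most abundant, a fixed set led by Foxj1 and Lpar1, the sex-linked genes, and 5 genes in each direction of each comparison of responses. Uncalled genes of the lists are described in part, and 1 gene is not reported here. Gene positions are from GENCODE M21 on GRCm38. p-values measure the spread between libraries, 1 per brain. Chi-square per degree of freedom between replicates was 1.57 to 1.98, so no pair of libraries was counted as 1 sample. On simulated data the test was checked before use. DESeq2 1.42.0 and further alternatives are given below.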

Additional observations from a re-analysis of the deposited data

Results flagged for a closer look

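The genes named in the comparisons of responses were singled out because a test of the difference itself was passed. In log2 units, as the response of ependymal nuclei minus that of choroid plexus, the differences were -1.96 for Gria4, -2.36 for Dach1 and -1.63 for Grik1. Against astrocytes they were 1.12 for Dzip1l, 0.83 for Nwd1, 1.63 for Reln, 1.19 for Thsd4 and 0.72 for Nnat, and -1.26 for Cfap44, -1.04 for Slc38a1, -1.28 for Cpne8, -1.95 for Gm17359 and -1.19 for Lrriq1.

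Nuclei outside the rule are given for comparison. Of those that met the marker threshold, 156 carried more UMIs of Mcidas, Deup1 and Cdc20b than the rule allows. The part of the 156 counted per library made up 0.422%, 0.341% and 0.604% of nuclei in the LPA libraries and 0.0864%, 0.00806% and 0.0406% in the vehicle libraries. The means were 0.456% ± 0.135 and 0.0450% ± 0.0394 (SD, n = 3). The genes are those of the rule and the limit is an absolute number of UMIs, so this is a description with no test, and the chosen nuclei of the LPA libraries were also deeper (a mean of the library medians of 3723 UMIs against 2996).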

How the results depend on the processing

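The 108 genes called between LPA and vehicle became 59 with DESeq2, 278 with no filter on low counts, 207 with no mitochondrial limit, 52 without nuclei that carried markers of other classes, 13 with the same number of nuclei per library, 60 in a Wilcoxon rank sum test on nuclei (47 higher and 13 lower) and 56 in sub-group 0 alone. Leaving out a library gave 46 (without vehicle replicate 2) to 90, with 53 without vehicle replicate 1, 65 without LPA replicate 1 and 70 without vehicle replicate 3. The replicate block gave 89 calls, of which 78 were among the 108. A term for Xist in the fit gave 83 calls, of which 68 were among the 108. Rarres2, Ccn1, Ptprz1, Slc1a3, Fth1 and Gm40761 lost their calls with that term. The replicate numbers did not pair the libraries, since same-numbered libraries correlated at 0.0188, 0.0447 and 0.0149 in their deviations. The 3 differences from choroid plexus became 0 with DESeq2, 54 with no filter, 9 with a limit on UMIs, 1 without nuclei with other markers and 5 at a marker threshold of 5, and 0 to 34 without 1 library. The difference for Dach1 reversed to 0.15 without nuclei with other markers. The 83 differences from astrocytes became 43 with DESeq2, 178 with no filter, 214 with no mitochondrial limit and 127 with a limit on UMIs, and 31 (without vehicle replicate 1) to 104 without 1 library. The share with a hindbrain gene differed by 0.0833 percentage points, by -0.282 unthinned, by -1.96 at 4000 UMIs and by -0.298 to 0.381 without 1 library. Of 746 values of the 38 called genes named, 0 had the other sign and 131 lost the call. The causes were not tested. The smallest library held 97 chosen nuclei. Alternatives that sub-groups enter were chosen after seeing the data.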

Other observations

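The following called genes lie outside the rule for naming and were chosen after their values were seen. Apoe, the apolipoprotein of glia, was at 512, 600 and 683 CPM in ependymal nuclei after LPA and at 1339, 1125 and 755 CPM after vehicle, a log2 fold-change of -0.85 (adjusted p = 0.011). The groups did not overlap. Neat1, the RNA scaffold of paraspeckles, rose by 0.90 on the log2 scale (adjusted p = 0.0078) and the phosphatase gene Dusp1 by 2.28 (adjusted p = 0.011). Ccdc192, a leading gene of sub-group 3, was at 62.1, 39.7 and 35.0 CPM after LPA and at 18.1, 12.8 and 8.51 CPM after vehicle.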
